A study of Mus musculus with 12 samples.

Results

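Angptl4, Pdk4, Acsl1, Cpt1a, Ucp2, Acot1, Acot2 and Cyp4b1 are 8 genes of fat metabolism that are known targets of the PPARs. They were taken by name, 8 of the 31053 genes counted, and with earlier results of these data known. They were followed in every cell class of the stromal vascular fraction (SVF) of mouse adipose tissue. These are the cells that remain when a fat depot is digested and its floating adipocytes are removed. Single-cell RNA-seq had been made from epididymal (eWAT) and inguinal (iWAT) white adipose tissue of male mice aged 12 weeks, in 12 libraries, each from 1 depot of 1 mouse. WT-Veh were wild-type C57BL/6 mice given vehicle, ob/ob-Veh were leptin-deficient ob/ob mice given vehicle, and ob/ob-Rosi were ob/ob mice given rosiglitazone (Rosi). All mice were gavaged morning and evening for 3 days, the Rosi mice with 30 mg/kg, and each group had 2 mice per depot. Because ob/ob mice lack leptin in the whole body, the ob/ob groups are a model of obesity without leptin, and no WT-Rosi libraries were analysed here.

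PPARs are nuclear receptors that bind fatty acids and, with the partner RXR, switch on genes for fat uptake, storage and burning. PPARγ is the form that drives adipocyte formation and the one that rosiglitazone activates, PPARα governs fat burning in liver, and PPARδ is found in most tissues. The 8 genes stand at successive steps of fat handling. Angptl4 is a secreted inhibitor of lipoprotein lipase, Acsl1 joins fatty acids to coenzyme A, Cpt1a passes them to the mitochondrion, and Pdk4 turns off pyruvate dehydrogenase when fat is burned in place of glucose. Ucp2 is a carrier of the inner mitochondrial membrane, Acot1 and Acot2 cleave acyl-coenzyme A in the cytosol and in mitochondria, and Cyp4b1 is a cytochrome P450 that can oxidise fatty acids.

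PPARs bind a direct repeat of the site AGGTCA with 1 base between, AGGTCANAGGTCA. This motif was sought on both strands in the 250 bases before the start of each gene, with promoter sequences from RefSeq on GRCm38.p6, where 7 of the 8 genes matched an entry. The best match of 4 genes that changed between the groups is shown, with the matching stretch in capitals, since these genes carry the results.
Pdk4 (chr6:5496412-5496444, minus strand): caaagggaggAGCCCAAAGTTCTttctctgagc
Ucp2 (chr7:100493108-100493132, plus strand): agGGGTAAGGGGTCGcgatccagag
Acot2 (chr12:83987793-83987825, plus strand): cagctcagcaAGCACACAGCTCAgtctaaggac
Cyp4b1 (chr4:115647847-115647879, plus strand): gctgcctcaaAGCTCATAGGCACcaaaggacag
The stretch of Cyp4b1 lies on the strand opposite to the gene. Of the 12 letters compared, 8 matched for Pdk4, Ucp2 and Cyp4b1 and 9 for Acot2. The median of all 32851 promoters was also 8, and 21.3% of them held a match of 9 letters or more. A single AGGTCA stood in 14.0% of all promoters and, among these genes, in that of Cpt1a only. No finding rests on these letters, which cover a short window and not the more distant elements of a gene.

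On GRCm38, Angptl4 spans chr17:33773750-33781830, Pdk4 chr6:5483351-5496309, Acsl1 chr8:46471037-46536051, Cpt1a chr19:3322334-3385733 and Ucp2 chr7:100493337-100502020. Acot1 and Acot2 lie side by side at chr12:84009490-84018371 and chr12:83987861-83993873, and Cyp4b1 is at chr4:115624725-115647723. Acot1 and Acot2 are near copies, 94.3% identical over 1330 aligned bases of their transcripts. Windows of 90 bases that also occur in another gene made up 23.9% of the Acot1 and 18.5% of the Acot2 transcript, but 0 of them lay in the last 500 bases of any of the 8 genes, where most reads of a 3-prime library start.

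After filtering, 126095 of 139755 barcodes remained, 6472 to 17500 per library, with median depths of 1132 to 4961 UMIs per cell and totals of 19593940 to 66315901 UMIs per library. Pairs of libraries shared 15 to 338 barcodes, at most 3.29% of a library. The iWAT library labelled WT-Veh replicate 1 stood apart, with 137 progenitor-like and 230 preadipocyte-like cells, endothelial cells in a cluster of their own, and 31.8% of its cells called doublets, against 1.17% to 5.18% in the other libraries. Clusters were named from marker genes as adipocyte progenitor- and preadipocyte-like cells, together the adipocyte precursor cells (APCs), mesothelial, mural and endothelial cells (ECs), macrophages of the perivascular (PVM), the lipid-associated (LAM) and the non-perivascular kind (NPVM), a further eWAT class of other macrophages, and lymphoid classes. Marker sums were checked for the progenitor-like, preadipocyte-like, mesothelial, EC, PVM, LAM and NPVM classes, and the markers of each were detected in it. The EC list for instance summed to 9129 to 10013 CPM (UMIs per 1e6 UMIs of the class) in the eWAT EC class. No such sums are given for the other classes. The LAM list in iWAT and the NPVM list set their classes less apart. LAMs of iWAT had 7386 to 11707 CPM against up to 9707 CPM in another class. NPVMs had 25201 to 45933 CPM in eWAT and 19198 to 36952 CPM in iWAT, against up to 42095 and 23109 CPM in another class. The APCs and PVMs of libraries with the label ob/ob-Veh lay in clusters apart from those of the other libraries in both depots, so a class of the same name was held by different clusters. A cluster of 4580 eWAT APC-like cells led by macrophage genes was left unnamed. It was not the only one, since every library held cells in no named class, the largest share in iWAT WT-Veh replicate 1. In eWAT this share was lower in both ob/ob-Veh libraries than in the WT-Veh and ob/ob-Rosi libraries. The cells left out thus differed between the groups compared.

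The labels were checked on Lep, whose ob mutation leaves a transcript that is raised in ob/ob adipocytes. In eWAT libraries labelled WT-Veh there were 28.0 and 42.5 Lep UMIs per 100 Adipoq UMIs, against 3.95 and 16.2 under the label ob/ob-Veh and 240 and 390 under the label ob/ob-Rosi. The iWAT values were 20.1 and 31.6, 36.4 and 15.1, and 164 and 141. Both eWAT ob/ob-Veh libraries thus lay below the WT-Veh libraries, and of the iWAT ones replicate 1 lay above, from 4 Lep and 11 Adipoq UMIs, and replicate 2 below, while the ob/ob-Rosi libraries lay above all others. These ratios rest on 4 to 277 Lep and 11 to 265 Adipoq UMIs a library. LAM-like cells, lipid-laden cells that can be lost with the floating adipocytes, numbered 8 and 18 in eWAT with the label ob/ob-Veh, against 1605 and 673 with WT-Veh and 1025 and 1702 with ob/ob-Rosi. Progenitor-like cells made up 18.7% and 9.39% of the eWAT cells under the label ob/ob-Veh, 1.28% and 1.87% under WT-Veh, and 2.00% and 0.626% under ob/ob-Rosi. By flow cytometry the study found both DPP4-positive progenitors and LAMs to be fewer in ob/ob-Rosi than in ob/ob-Veh mice, in both depots. Its LAM gate took macrophages negative for Tim4 and CD11c, so these are not the same population as the LAM-like cells named from transcripts here. The study also found numerous macrophages among the floating cells of ob/ob-Veh mice. An exchange of the labels WT-Veh and ob/ob-Veh would turn the sign of every ob/ob effect and give the Rosi effect another control. Whether one took place was not tested. Every direction given is therefore one between libraries as labelled.

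**Figure D1:**
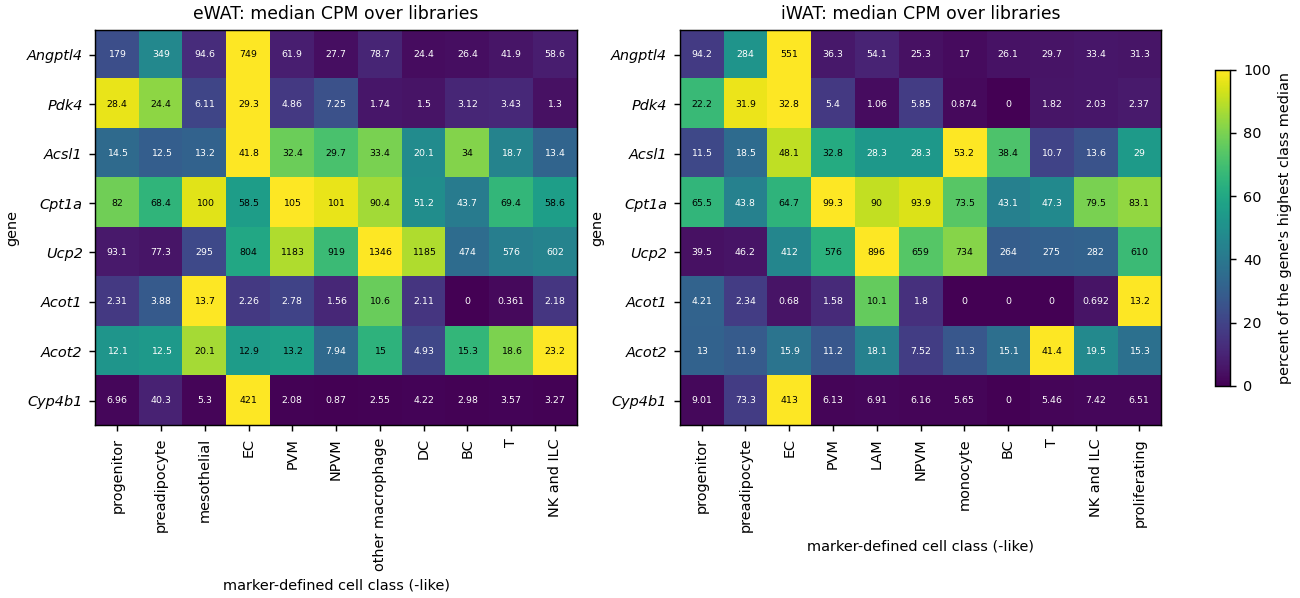
Median level of each gene over the libraries of a depot (CPM, numbers in the cells) by cell class, with the colour giving the percent of that gene's highest class. Angptl4 and Cyp4b1 were highest in ECs, with a Cyp4b1 median of 421 CPM in eWAT and 413 CPM in iWAT, Ucp2 was highest in macrophage classes and lowest in APCs, and Cpt1a was highest in PVMs.

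The 8 genes were spread over different cells. All levels are CPM over the summed cells of 1 class in 1 library, and they are compared within a gene only. Clusters were built without these genes, but from the same cells, so levels between classes carry no test. The order of classes is that among classes held by at least 5 libraries of a depot. Cyp4b1 was highest in ECs. In eWAT ECs its lowest, median and highest library stood at 288, 421 and 1073 CPM, and in the next class, preadipocyte-like cells, at 0.462, 40.3 and 83.5 CPM. The iWAT values were 180, 413 and 1446 CPM in ECs and 5.39, 73.3 and 91.2 CPM in preadipocyte-like cells. In both depots the 2 classes did not overlap. Mural cells of eWAT, held by fewer than 5 libraries, had group means of 146 to 593 CPM for Cyp4b1 and 279 to 1449 CPM for Angptl4. These mural cells, 21 to 45 a library, also held RNA of the adipocyte genes Adipoq (121 to 561 CPM) and Plin1 (28.6 to 193 CPM). The part of adipocyte RNA in the mural levels was not tested. Angptl4 was also highest in ECs, at 327, 749 and 1862 CPM in eWAT, but preadipocyte-like cells followed at 209, 349 and 485 CPM and overlapped with them.

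In eWAT the preadipocyte-like cells did not overlap with the progenitor-like cells, the next class, with a median of 179 CPM. Pdk4 had eWAT medians of 29.3 CPM in ECs, 28.4 CPM in progenitor-like cells and 24.4 CPM in preadipocyte-like cells, which overlapped, while NPVMs followed at 7.25 CPM without overlap with the preadipocyte-like cells. The iWAT medians were 32.8, 22.2 and 31.9 CPM, and 5.85 CPM in NPVMs, with overlap throughout. Ucp2 went the other way. The eWAT macrophages other than PVMs, LAMs and NPVMs had a median of 1346 CPM (780 to 1930 CPM). Dendritic cells and PVMs of eWAT had medians of 1185 and 1183 CPM, NPVMs 919 CPM and ECs 804 CPM, all overlapping with their neighbours in order, and the lowest were the progenitor-like cells, with 93.1 CPM in eWAT and 39.5 CPM in iWAT, and the preadipocyte-like cells, with 77.3 and 46.2 CPM. Acsl1 was highest in eWAT ECs, with a median of 41.8 CPM, and in iWAT monocytes and ECs, with 53.2 and 48.1 CPM. In classes held by fewer than 5 libraries, its group means were 51.6 to 266 CPM in eWAT mural cells, which also held the adipocyte RNA given above. The Acsl1 group means were 119 and 126 CPM in iWAT neutrophils. PVMs led for Cpt1a, with medians of 105 CPM in eWAT and 99.3 CPM in iWAT. Acot1 was sparse, with a median of 13.7 CPM in eWAT mesothelial cells and 9.74 to 20.8 CPM in proliferating cells, which 4 eWAT libraries held. The leading classes for Acot2 were NK and ILC cells in eWAT, with a median of 23.2 CPM, ahead of mesothelial cells with 20.1 CPM, and T cells in iWAT, with 41.4 CPM. Neighbouring classes overlapped for Acsl1, Cpt1a, Acot1 and Acot2.

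The receptor itself was an endothelial transcript here. Pparg had medians of 206 CPM in eWAT and 224 CPM in iWAT ECs, without overlap with the next class in order, and of 13.1 and 28.5 CPM in preadipocyte-like cells. Ppara stayed at or below 16.7 CPM. Of the PPAR receptors and their partners, edgeR called 0 of 32 tests in preadipocyte-like cells, ECs and PVMs in each of the 3 contrasts. An unadjusted p under 0.05 was held by 3, 4 and 1 in the ob/ob, the Rosi and the ob/ob-Rosi against WT-Veh contrast. In these classes 0.0651% to 9.95% of all genes were called in the ob/ob and 0.0325% to 13.2% in the Rosi effect. Over all classes, the third contrast called 0.0307% of tests in eWAT and 0.024% in iWAT.

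To ask how obesity and Rosi moved the 8 genes, UMIs were summed per library and class and tested with edgeR's quasi-likelihood test. A gene was called if it changed by 1.1-fold or more and its p, adjusted by Benjamini-Hochberg over all genes of that class and contrast, did not exceed 0.05. Changes are log2 values ± SE. The ob/ob effect sets ob/ob-Veh against WT-Veh libraries, as labelled. The Rosi effect sets ob/ob-Rosi against ob/ob-Veh libraries. In eWAT, 8 of 65 tests of a gene in a class were called in the ob/ob effect, 2 higher and 6 lower, where 3.78% of all tests were called. The Rosi effect called 5 of 65, 3 higher and 2 lower, against 3.82% of all, and with scaling to library size alone 2 were higher and 3 lower. In iWAT the ob/ob effect called 4 of 46, all lower, against 2.92%, and the Rosi effect 4 of 46, 3 higher and 1 lower, against 5.49%, with 2 and 2 under library size alone. The iWAT Rosi share of 8.7% and the eWAT Rosi share of 7.69% were thus nearer to their backgrounds than the eWAT ob/ob share of 12.3%. The 8 genes and the lists below were chosen with earlier results of these data known, so such shares are a description.

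When ob/ob-Rosi was set against WT-Veh, few tests were called. edgeR called 1 of 80 tests in eWAT, where 0.0307% of all were called, and 0 of 65 in iWAT, against 0.024%. At an unadjusted p under 0.05 there were 15 and 16, and DESeq2 called 4 and 6. The shares of all tests by these measures are not given, here or beside single genes below, so such counts have no background. The median log2 change of the genes in eWAT was -0.30 in the ob/ob effect, where all genes had -0.0046, and 0.02 in the Rosi effect, where all genes had 0.0057. In iWAT the medians were -0.81 and 0.29, against -0.02 and -0.03 for all genes.

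**Figure D2:**
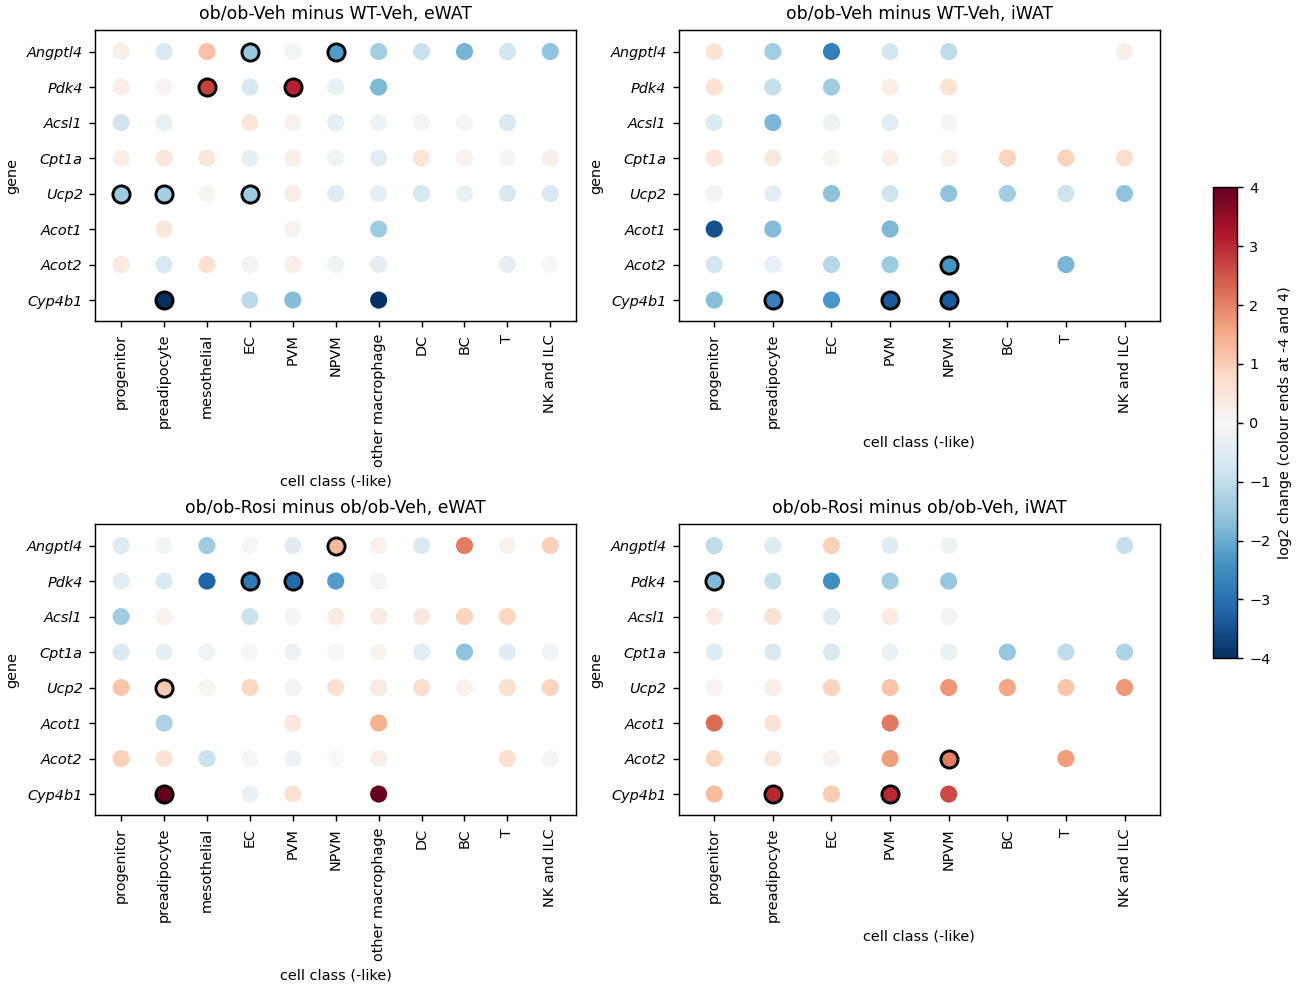
Log2 changes of the 8 genes (rows) in the cell classes (columns) of eWAT and iWAT, for the ob/ob effect and the Rosi effect, with colour for the change and a black ring for a called test. The largest ringed changes are those of Cyp4b1 in eWAT preadipocyte-like cells, -5.45 and 5.77, and Acsl1, Cpt1a and Acot1 carry no ring.

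The largest called changes were those of Cyp4b1 in eWAT preadipocyte-like cells. Larger fitted values in the class of other macrophages of eWAT (-7.75 and 7.05, adjusted p = 0.286 and 0.407) came from ob/ob-Veh libraries with 0 UMIs and were not called. The eWAT libraries with the label WT-Veh stood at 42.6 and 56.2 CPM, those with the label ob/ob-Veh at 0.462 and 2.01 CPM, and those with the label ob/ob-Rosi at 38.0 and 83.5 CPM. Both ob/ob-Veh libraries were far below all 4 others. The ob/ob effect was -5.45 ± 0.54 (43.8-fold lower, adjusted p = 0.000439, where 9.95% of all genes of this class were called) and the Rosi effect 5.77 ± 0.54 (54.6-fold higher, adjusted p = 0.000292, 13.2% called). The counts behind these were 122 and 331, 6 and 24, and 126 and 920 UMIs. Without ob/ob-Veh replicate 1 the effects were -4.80 and 5.11, without replicate 2 -6.71 and 7.01, and without ob/ob-Rosi replicate 2 the Rosi effect was 5.09, and all of these kept the call.

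The share of preadipocyte-like cells with a Cyp4b1 UMI was 7.52% and 20.4% with the label WT-Veh, 0.254% and 1.06% with ob/ob-Veh, and 11.4% and 25.5% with ob/ob-Rosi, at median depths of 2169 to 5917 UMIs. Thinned to 700 UMIs a cell, which left out no cell, the shares were 3.2% and 3.87%, 0.0848% and 0.176%, and 2.56% and 5.51%. In T cells of the same depot, which are not known for this gene, the thinned shares were between 0% and 1.11%, with median depths of 872 to 2458 UMIs. The shares in the ob/ob-Veh preadipocyte-like cells therefore lay within this background.

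In iWAT preadipocyte-like cells Cyp4b1 was at 78.0 and 68.5 CPM in the WT-Veh, 5.39 and 16.1 CPM in the ob/ob-Veh and 91.2 and 88.6 CPM in the ob/ob-Rosi libraries. The ob/ob-Veh libraries were again below the others. Here the ob/ob effect was -2.70 ± 0.41 (adjusted p = 0.0262, 1.16% of all genes called) and the Rosi effect 3.02 ± 0.40 (adjusted p = 0.0240, 1.16% called). Both calls were lost without ob/ob-Veh replicate 1 (-2.21, adjusted p = 0.265, and 2.53, adjusted p = 0.389) and without replicate 2 (-3.70, adjusted p = 0.103, and 4.02, adjusted p = 0.0774). The ob/ob call was also lost in cells thinned to 700 UMIs (adjusted p = 0.0775).

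**Figure D3:**
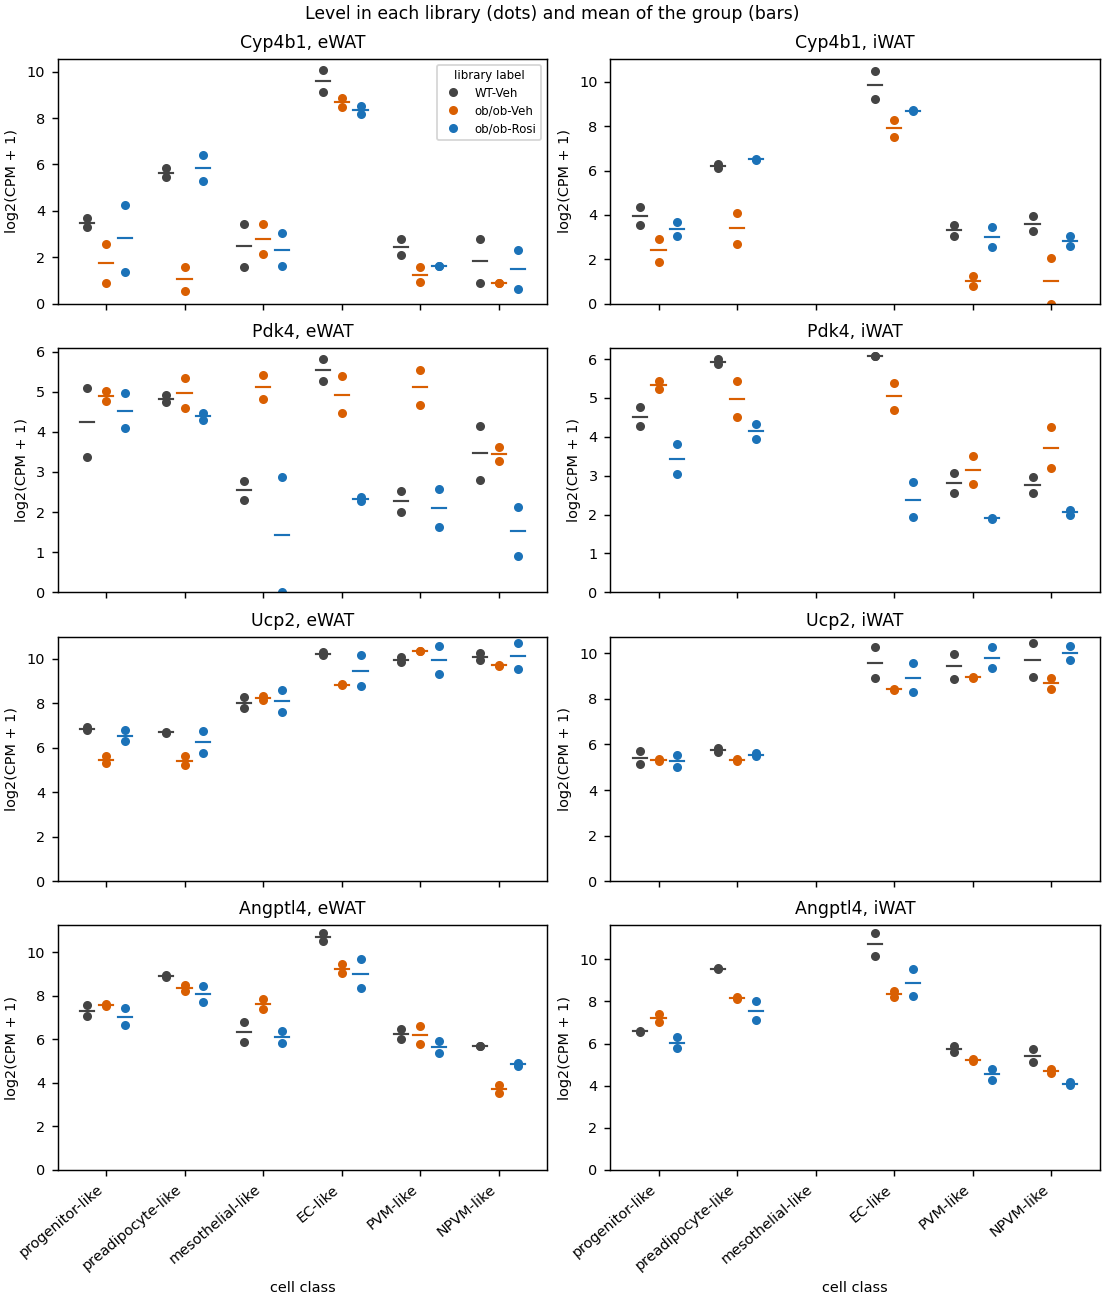
Log2(CPM + 1) of Cyp4b1, Pdk4, Ucp2 and Angptl4 in each library (dots) and the mean of these log2 values per group (bars), by cell class and depot. The 2 ob/ob-Veh dots of Cyp4b1 in preadipocyte-like cells lie below all others, and those of Pdk4 in eWAT PVMs lie above all others.

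Free RNA from other cells bears on Cyp4b1, since ECs hold so much of it. How much endothelial RNA would bring was estimated from the level of the EC markers in a class times the ratio of Cyp4b1 to these markers in ECs of the same library. For eWAT preadipocyte-like cells it came to 2.24 and 4.09 CPM, 0.392 and 1.28 CPM, and 1.25 and 1.97 CPM, for the 3 groups as above. The measured levels of the WT-Veh and ob/ob-Rosi libraries were above these amounts. The estimate takes the ratio of Cyp4b1 to the markers to be the same in free RNA as in ECs, which was not tested. In iWAT preadipocyte-like cells the estimates were 7.63 and 6.29, 0.312 and 1.45, and 4.36 and 3.04 CPM, and every measured level was above its own.

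Cyp4b1 in iWAT macrophages looked otherwise. In PVMs the WT-Veh libraries held 7.33 and 10.6 CPM, the ob/ob-Veh libraries 0.729 and 1.37 CPM and the ob/ob-Rosi libraries 9.87 and 4.94 CPM, with an ob/ob effect of -3.35 ± 0.55 (adjusted p = 0.0148, 5.95% of all genes called) and a Rosi effect of 2.99 ± 0.55 (adjusted p = 0.0240, 9.21% called). The ob/ob-Veh libraries lay below those of the other groups, which overlapped, and endothelial RNA would bring 8.24 and 7.97, 0.381 and 1.55, and 5.35 and 3.06 CPM. The estimate was above the measured level in WT-Veh replicate 1 and ob/ob-Veh replicate 2 and below it in the other 4 libraries, both ob/ob-Rosi libraries included. In NPVMs the measured levels were 14.5 and 8.62, 0 and 3.20, and 7.22 and 5.11 CPM, with an ob/ob effect of -3.35 ± 0.88 (adjusted p = 0.0463, 6.86% called), and the estimates were 13.3 and 9.41, 0.707 and 2.15, and 5.27 and 2.61 CPM. The part of endothelial RNA in these changes was not tested further. By library size alone, with doublets removed and with finer clusters (Leiden resolution 2) the NPVM call was lost. In cells thinned to 700 UMIs the Rosi call of PVMs was lost. The PVM calls were lost without ob/ob-Veh replicate 1 (adjusted p = 0.204 and 0.261) or replicate 2 (0.105 and 0.131), and the Rosi call also without ob/ob-Rosi replicate 2 (0.0614). The NPVM call was kept without WT-Veh replicate 1 only, and its change was -2.18 without ob/ob-Veh replicate 1 and -8.03 without replicate 2.

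**Figure D4:**
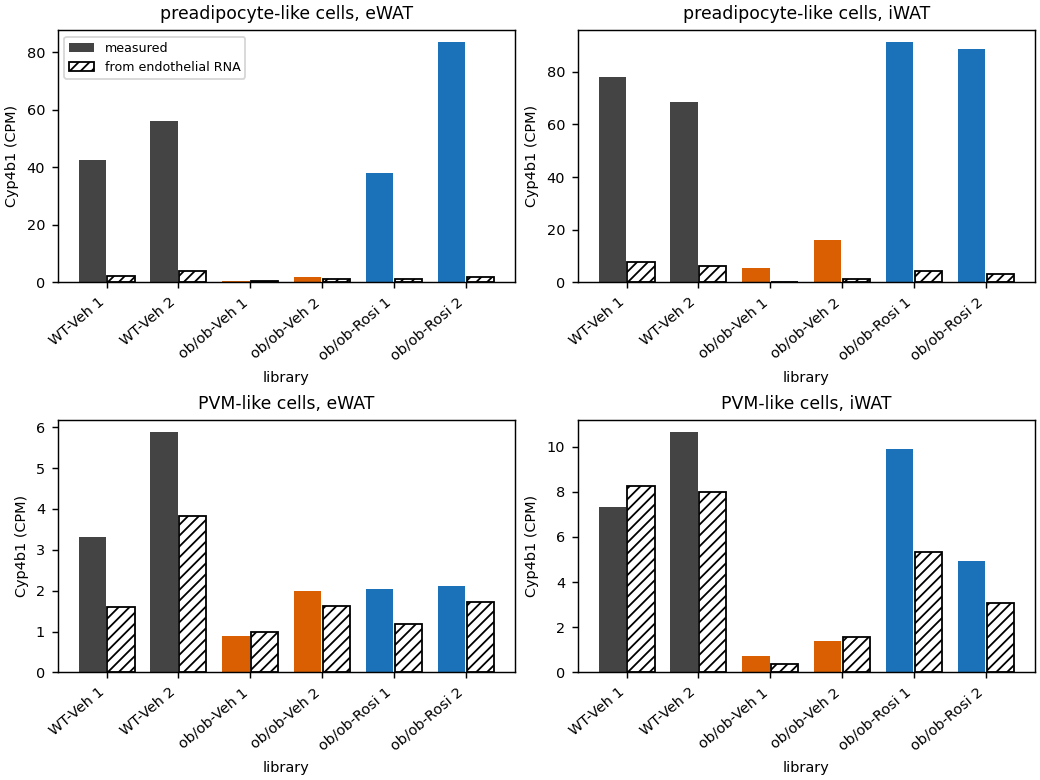
Cyp4b1 level (CPM) in preadipocyte-like cells and PVMs of each library, with hatched bars for the amount that endothelial RNA would bring. In eWAT preadipocyte-like cells the measured 42.6 and 56.2 CPM of the WT-Veh libraries stand against 2.24 and 4.09 CPM, while in iWAT PVMs 7.33 and 10.6 CPM stand against 8.24 and 7.97 CPM in WT-Veh and 9.87 and 4.94 CPM against 5.35 and 3.06 CPM in ob/ob-Rosi libraries.

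In ECs themselves Cyp4b1 was not called. The eWAT levels were 562 and 1073 CPM in WT-Veh, 354 and 472 CPM in ob/ob-Veh and 288 and 370 CPM in ob/ob-Rosi libraries, with an ob/ob effect of -1.08 ± 0.31 (adjusted p = 0.0698) and the ob/ob-Rosi and ob/ob-Veh libraries overlapped. The iWAT levels were 597 and 1446, 180 and 312, and 421 and 405 CPM. Over all classes of both depots, the ob/ob effect on Cyp4b1 was below 0 in 9 of 9 tests, 4 of them called. The Rosi effect was above 0 in 8 of 9, 3 of them called. In this tally and those of other genes below, the classes of a depot share the same libraries, so the tests are not independent. A gene was tested only in classes where enough libraries held it, so a class could enter through the groups in which the gene was high. Classes not tested are not counted, and the tallies of direction are a description.

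In the classes tested, Pdk4 fell with Rosi. Its Rosi effect was below 0 in 12 of 12 tests over both depots, with a median of -1.65, and 3 were called. Against WT-Veh the ob/ob-Rosi libraries were lower in 14 of 14 tests, with a median of -1.30 and 1 call (9 at an unadjusted p under 0.05). In eWAT ECs WT-Veh libraries stood at 54.9 and 37.4 CPM, ob/ob-Veh libraries at 40.7 and 21.2 CPM and ob/ob-Rosi libraries at 4.20 and 3.83 CPM. The 2 ob/ob-Rosi libraries lay below all others. The Rosi effect was -2.85 ± 0.44 (7.20-fold lower, adjusted p = 0.00490, 3.41% of all genes called), and against WT-Veh the change was -3.53 ± 0.44 (11.6-fold lower, adjusted p = 0.0114, 0.258% called). Thinned to 700 UMIs a cell these were -1.96 (adjusted p = 0.222) and -2.65 (adjusted p = 0.128). Without ob/ob-Rosi replicate 2 the first had an adjusted p of 0.0523, and without WT-Veh replicate 1 the second one of 0.0562.

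In iWAT ECs the same order was seen without a call, at 66.0 and 66.6, 40.8 and 24.8, and 6.09 and 2.84 CPM, with a Rosi effect of -2.44 ± 0.46 (adjusted p = 0.121). In iWAT progenitor-like cells Pdk4 stood at 18.2 and 26.2 CPM, 42.1 and 36.8 CPM, and 7.30 and 13.1 CPM. The Rosi effect was -1.75 ± 0.35 (3.37-fold lower, adjusted p = 0.0350, 3.03% called). This call was lost without either ob/ob-Veh library (adjusted p = 0.329 and 0.185) or either ob/ob-Rosi library (0.0908 and 0.0599).

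In eWAT PVMs Pdk4 was high in the libraries labelled ob/ob-Veh alone. The levels were 4.75 and 3.04 CPM in WT-Veh, 45.7 and 24.5 CPM in ob/ob-Veh, and 4.97 and 2.11 CPM in ob/ob-Rosi libraries, from 23 and 15, 308 and 220, and 17 and 5 UMIs. The ob/ob effect was 3.06 ± 0.43 (8.36-fold higher, adjusted p = 0.00678, 3.51% called) and the Rosi effect -3.12 ± 0.47 (8.68-fold lower, adjusted p = 0.0111, 2.93% called). The share of PVMs with a Pdk4 UMI at 700 UMIs a cell was 3.12% and 2.0% in the ob/ob-Veh libraries and 0.231% to 0.392% in the other 4, against 12.5% and 9.48%, and 0.962% to 1.74%, unthinned. In T cells of the same depot the thinned share was at most 0.368%, so that of the 4 low libraries was of the size of background. Preadipocyte RNA carried over would bring at most 1.17 CPM and endothelial RNA at most 0.155 CPM. These estimates assume the same ratio to the markers in free RNA as in the cells, and the part of carried-over RNA was not tested. The ob/ob call was lost without WT-Veh replicate 1 (adjusted p = 0.0778) or 2 (0.0882), and the Rosi call without ob/ob-Veh replicate 1 (0.0525) and without ob/ob-Rosi replicate 2 (0.119). Without ob/ob-Rosi replicate 1 the Rosi effect was -3.90 and called.

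Mesothelial cells of eWAT had Pdk4 at 5.90 and 3.92 CPM, 42.1 and 27.4 CPM, and 6.32 and 0 CPM. This ob/ob effect was 2.75 ± 0.66 (6.71-fold higher, adjusted p = 0.0478, 3.52% called). It was lost without WT-Veh replicate 1 (adjusted p = 0.193) or 2 (0.206), without ob/ob-Veh replicate 1 (0.405), and in cells without an Adipoq or Plin1 UMI (0.0515). The mesothelial call was also lost by DESeq2, with doublets removed and at Leiden resolution 2. In preadipocyte-like cells of eWAT Pdk4 was at 29.4 and 25.6, 39.8 and 23.2, and 21.1 and 18.7 CPM, and no change was called.

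Ucp2 was lower in the libraries labelled ob/ob-Veh in 17 of 19 tests, 3 of them called, all in eWAT. Progenitor-like cells had 122 and 109 CPM in WT-Veh, 38.4 and 48.2 CPM in ob/ob-Veh and 77.1 and 109 CPM in ob/ob-Rosi libraries. Against WT-Veh the change was -1.44 ± 0.26 (2.72-fold lower, adjusted p = 0.00588, 3.37% called), and it was lost without ob/ob-Veh replicate 1 (adjusted p = 0.115) and in thinned cells (0.226). Preadipocyte-like cells had 105 and 101, 36.1 and 48.6, and 54.0 and 108 CPM, with an ob/ob effect of -1.40 ± 0.31 (2.64-fold lower, adjusted p = 0.0211) and a Rosi effect of 1.07 ± 0.31 (2.10-fold higher, adjusted p = 0.0479). Here 1 of the ob/ob-Rosi libraries was at the WT-Veh level and the other near the ob/ob-Veh level. Thinned to 700 UMIs a cell, both calls of preadipocyte-like cells were lost, and library size alone lost the Rosi call.

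These calls rested on few libraries. The ob/ob effect in preadipocyte-like cells was lost without any of WT-Veh replicates 1 and 2 (adjusted p = 0.0953 and 0.0534) and ob/ob-Veh replicates 1 and 2 (0.129 and 0.0635). The Rosi effect was lost without each of 5 libraries, all but ob/ob-Rosi replicate 1, with adjusted p between 0.0549 and 0.36, and without ob/ob-Rosi replicate 2 it was 0.48. Macrophages hold more Ucp2, and their RNA would bring 35.8 and 34.2, 15.2 and 17.4, and 19.9 and 49.2 CPM to preadipocyte-like cells and 40.9 and 34.8, 17.6 and 24.7, and 25.6 and 60.8 CPM to progenitor-like cells. It moved in the same direction as Ucp2 and was below the measured level in every library, and its part in the changes was not tested.

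In eWAT ECs Ucp2 stood at 1138 and 1254 CPM in WT-Veh, at 445 and 471 CPM in ob/ob-Veh and at 435 and 1146 CPM in ob/ob-Rosi libraries. The WT-Veh libraries were above both ob/ob-Veh libraries, and the ob/ob-Rosi libraries lay at either end. The ob/ob effect was -1.48 ± 0.37 (2.79-fold lower, adjusted p = 0.0478, 4.35% called), and macrophage RNA would bring 62.9 to 174 CPM. The call was lost without WT-Veh replicate 1 (adjusted p = 0.176) or 2 (0.132) and without ob/ob-Veh replicate 1 (0.137) or 2 (0.162). This EC call was also lost by library size alone, with doublets removed and at Leiden resolution 2. The part of macrophage RNA in it was not tested. In eWAT PVMs Ucp2 was at 923 and 1073, 1319 and 1293, and 630 and 1541 CPM, and no change was called.

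Angptl4 was lower in the libraries labelled ob/ob-Veh in 13 of 17 tests, 2 of them called, and below WT-Veh in the ob/ob-Rosi libraries in 20 of 21, with a median of -1.20 and 0 called by edgeR (13 at an unadjusted p under 0.05, and 6 called by DESeq2). Its eWAT EC levels were 1451 and 1862 CPM in WT-Veh, 689 and 524 CPM in ob/ob-Veh, and 327 and 809 CPM in ob/ob-Rosi libraries. Angptl4 there had an ob/ob effect of -1.54 ± 0.38 (2.91-fold lower, adjusted p = 0.0432). It was lost without WT-Veh replicate 1 (adjusted p = 0.131) or 2 (0.143) and without ob/ob-Veh replicate 1 (0.0549) or 2 (0.2). The call was also lost with doublets removed and at Leiden resolution 2. Preadipocyte RNA would bring at most 32.1 CPM to these cells, and its part was not tested. In iWAT ECs the levels were 1152 and 2444, 360 and 292, and 304 and 741 CPM, and the ob/ob effect of -2.78 ± 0.54 had an adjusted p of 0.0916.

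In eWAT NPVMs Angptl4 was at 50.1 and 51.2 CPM, 10.4 and 13.8 CPM, and 26.3 and 29.1 CPM. The 3 groups did not overlap. For these cells the ob/ob effect was -2.23 ± 0.31 (4.71-fold lower, adjusted p = 0.00120, 2.81% called) and the Rosi effect 1.30 ± 0.31 (2.46-fold higher, adjusted p = 0.0230, 5.17% called). In thinned cells they were -1.42 (adjusted p = 0.13) and 1.09 (0.249). The Rosi call was also lost without ob/ob-Veh replicate 1 (0.176) or 2 (0.077) and without ob/ob-Rosi replicate 2 (0.115). Preadipocyte RNA would bring 21.5 and 10.3, 6.78 and 8.51, and 5.49 and 7.05 CPM, and endothelial RNA 3.73 and 7.03, 1.68 and 1.80, and 1.19 and 3.34 CPM. Their part in the changes was not tested.

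Of the thioesterases, Acot2 changed in iWAT NPVMs. It was at 11.3 and 9.28 CPM in WT-Veh, 2.71 and 2.13 CPM in ob/ob-Veh and 6.94 and 8.10 CPM in ob/ob-Rosi libraries, from 7 and 42, 4 and 2, and 25 and 46 UMIs. Acot2 had an ob/ob effect of -2.37 ± 0.58 (5.16-fold lower, adjusted p = 0.0389) and the Rosi effect 2.04 ± 0.56 (4.10-fold higher, adjusted p = 0.0321), where 17.8% of all genes of this class were called. With scaling to library size alone both calls were lost (adjusted p = 0.0644 and 0.0654). Both were lost by DESeq2 as well, and the ob/ob call at Leiden resolution 2. The ob/ob call was kept only when WT-Veh replicate 1 was the library left out, and the Rosi call when either WT-Veh library was left out, but not when any of the other 4 was. In iWAT PVMs Acot2 was at 9.87 and 15.5, 2.73 and 8.47, and 12.4 and 17.4 CPM, and its Rosi effect of 1.66 ± 0.50 had an adjusted p of 0.0692.

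For Acsl1, Cpt1a and Acot1 edgeR called 0 tests. A test not called does not show the absence of a change, since 2-fold changes were mostly missed in simulated data of eWAT preadipocyte-like cells, ECs and PVMs. Acsl1 was tested in 14 classes, with changes between -1.83 and 0.47 in the ob/ob effect and -1.38 and 0.89 in the Rosi effect. In iWAT preadipocyte-like cells it was at 61.7 and 25.4, 8.09 and 14.8, and 12.9 and 22.2 CPM, and in eWAT ECs at 26.4 and 51.0, 51.2 and 67.5, and 30.0 and 32.5 CPM. At an unadjusted p under 0.05 there were 1 ob/ob and 2 Rosi tests, and DESeq2 called 1 and 0. Cpt1a was tested in 19 classes, with changes between -0.45 and 0.93 and between -1.60 and 0.15. Its unadjusted counts were 0 and 2, and DESeq2 called 0 in both. The ob/ob effect was above 0 in 16 of 19 tests and the Rosi effect below 0 in 16 of 19. In eWAT PVMs its levels were 96.4 and 106, 139 and 118, and 104 and 99.5 CPM.

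Acot1 was tested in 6 classes, with unadjusted counts of 1 and 3 and a DESeq2 call in 1 test of each contrast. In iWAT progenitor-like cells its levels were 2.81 and 30.8 CPM in WT-Veh, 1.56 and 2.73 CPM in ob/ob-Veh, and 5.62 and 11.6 CPM in ob/ob-Rosi libraries, with an ob/ob effect of -3.50 ± 0.72 (adjusted p = 0.0574). The WT-Veh libraries differed more from each other than replicate 1 did from any ob/ob-Veh library.

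Whether the Rosi effect differed between cell classes was tested with the library as a block. In eWAT, 6 of 24 differences among preadipocyte-like cells, ECs and PVMs were called. For Cyp4b1, the effect was -0.27 in ECs and 0.60 in PVMs against 5.77 in preadipocyte-like cells, and both differences were called (-5.92 ± 0.40, adjusted p = 1.1e-06, and -5.15 ± 0.57, adjusted p = 0.00012). For Pdk4 the effects of -2.85 in ECs and -3.12 in PVMs both differed from -0.59 in preadipocyte-like cells (-2.21 ± 0.32, adjusted p = 0.00096, and -2.73 ± 0.34, adjusted p = 0.00030). For Ucp2 the PVM effect of -0.13 differed from 1.07 in preadipocyte-like cells and from 0.85 in ECs. Over all genes, 4.22% of the differences between ECs and preadipocyte-like cells, 1.99% of those between PVMs and ECs and 3.55% of those between PVMs and preadipocyte-like cells were called.

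In iWAT, edgeR called 0 of 24 such differences (9 at an unadjusted p under 0.05), where the background shares were 0.053%, 0.0303% and 3.66%. The iWAT EC class gave few calls in any contrast, with 0.0651% of all genes in the ob/ob and 0.0325% in the Rosi effect. Between depots, edgeR called 0 of 50 differences of the ob/ob effect (10 at an unadjusted p under 0.05, 0.477% of all genes called) and 0 of 50 of the Rosi effect (9, 0.149% called), so a call in 1 depot alone is not a difference between the depots. With a replicate block, 3 differences of the ob/ob effect (1.19% of all genes called) and 1 of the Rosi effect (0.949%) were called.

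Free adipocyte RNA was read from Adipoq, the adipokine adiponectin, and Plin1, the coat protein of fat droplets. In eWAT ECs Adipoq was at 6.59 and 2.45 CPM in WT-Veh, 73.6 and 44.8 CPM in ob/ob-Veh and 0.60 and 2.22 CPM in ob/ob-Rosi libraries, and Plin1 at 17.6 and 10.5, 15.4 and 13.8, and 0 and 0.202 CPM. The 11 adipocyte markers summed to 46.1 and 44.4, 454 and 370, and 22.8 and 29.0 CPM, and all 11 were detected in the ob/ob-Veh libraries. In iWAT ECs Adipoq was at 11.9 and 7.47, 17.0 and 18.3, and 5.42 and 10.6 CPM, Plin1 at 13.1 and 16.7, 10.2 and 3.54, and 1.14 and 1.85 CPM, and the markers summed to 82.0 and 87.1, 214 and 179, and 47.0 and 76.5 CPM. In ECs of both depots Plin1 was thus lowest in the ob/ob-Rosi libraries, as Pdk4 was, whereas Adipoq was highest in the ob/ob-Veh libraries. In eWAT PVMs the sums were 6.2 and 7.9, 24.8 and 21.6, and 3.8 and 3.8 CPM, in the order of Pdk4, and in eWAT preadipocyte-like cells 12.6 and 52.1, 5.7 and 8.0, and 5.7 and 10.1 CPM. In iWAT preadipocyte-like cells they were 298 and 275, 53.9 and 106, and 66.9 and 60.9 CPM. With cells that had an Adipoq or Plin1 UMI left out, every call of the 8 genes was kept, those of Pdk4 in eWAT ECs included, but that of Pdk4 in mesothelial cells. Among eWAT ob/ob-Veh cells, 20.7% and 16.1% of ECs held an Adipoq UMI. The shares were 0.846% and 0.758% of PVMs and 0% and 0.406% of mesothelial cells. Free RNA in the remaining cells stays in, so a call kept or lost here does not measure the part of adipocyte RNA. Of 10 genes of the response to tissue digestion, 2 were called higher in the ob/ob and 2 lower in the Rosi effect in eWAT preadipocyte-like cells, where 9.95% and 13.2% of all genes were called, 2 and 3 in eWAT ECs (4.35% and 3.41%), 1 and 1 in eWAT PVMs (3.51% and 2.93%) and 3 and 5 in eWAT NPVMs (2.81% and 5.17%). Hspa1b, a heat shock protein, was higher by 1.85 in eWAT preadipocyte-like cells and by 1.78 in eWAT PVMs of the libraries labelled ob/ob-Veh. The part of digestion in the changes of the 8 genes was not tested. Of 9 hypoxia genes, 1 was lower in the ob/ob effect and 1 was higher and 2 lower in the Rosi effect in eWAT preadipocyte-like cells (9.95% and 13.2% of all genes called), and of 9 glucocorticoid targets 1 was lower in the ob/ob effect in eWAT ECs (4.35%). In iWAT, the ob/ob effect in PVMs (5.95%) held 1 digestion gene called higher and 1 hypoxia gene called lower. The iWAT Rosi effect called 1 digestion gene and 1 hypoxia gene lower in preadipocyte-like cells (1.16%), and in PVMs (9.21%) 1 digestion gene, 1 hypoxia gene and 1 glucocorticoid target higher and 1 digestion gene lower.

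Among 43 other PPAR targets, the Rosi effect called 10 of 228 tests in preadipocyte-like cells, ECs and PVMs of both depots higher and 16 lower, and the ob/ob effect 2 higher and 19 lower. In eWAT the Rosi calls were 4 higher and 5 lower of 38 in preadipocyte-like cells, where 13.2% of all genes were called, 1 higher and 6 lower of 36 in ECs (3.41%), and 2 higher and 2 lower of 38 in PVMs (2.93%). In iWAT they were 1 higher and 1 lower of 40 in preadipocyte-like cells (1.16%), 0 of 38 in ECs (0.0325%), and 2 higher and 2 lower of 38 in PVMs (9.21%). Calls of the ob/ob effect were 0 higher and 6 lower in eWAT preadipocyte-like cells (9.95%), 1 and 4 in eWAT ECs (4.35%) and 1 and 2 in eWAT PVMs (3.51%), and in iWAT 0 and 5 in preadipocyte-like cells (1.16%), 0 and 0 in ECs (0.0651%) and 0 and 2 in PVMs (5.95%). The median log2 Rosi effect of the list was 0.15, -0.20 and 0.11 in these classes, where all genes had -0.02, -0.02 and 0.01. Fabp5, a fatty acid carrier, rose with Rosi in the preadipocyte-like cells and PVMs of both depots. Its eWAT PVM levels were 292 and 272 CPM in WT-Veh, 13.4 and 24.9 CPM in ob/ob-Veh, and 252 and 295 CPM in ob/ob-Rosi libraries, a Rosi effect of 3.97, and the change was 2.28 in eWAT preadipocyte-like cells, 2.99 in iWAT preadipocyte-like cells and 3.04 in iWAT PVMs. Fabp4, the adipocyte form of the carrier, rose by 1.42 in eWAT PVMs, from 181 and 292 CPM to 573 and 579 CPM. Creb3l3, a transcription factor of lipid metabolism, rose by 3.81 in eWAT preadipocyte-like cells, from 0.615 and 1.09 CPM to 6.03 and 15.2 CPM.

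Other PPAR targets fell. Scd1, which desaturates fatty acids and is abundant in adipocytes, stood at 9.88 and 14.0, 386 and 235, and 25.8 and 14.5 CPM in eWAT ECs, a Rosi effect of -3.96 that ran with the adipocyte markers above. Aqp7, a glycerol channel, changed by -1.76 in the same cells, from 671 and 776 CPM to 224 and 189 CPM. Klf11, a transcription factor, fell in these 3 classes of eWAT, by 1.77 in ECs and 1.58 in PVMs on the log2 scale, and in iWAT preadipocyte-like cells and PVMs (-1.46 and -1.19). Fabp3, the fatty acid carrier of heart and muscle, changed by -2.18 ± 0.60 with Rosi (adjusted p = 0.0405) in eWAT preadipocyte-like cells, from 2.15 and 2.59 CPM to 0.302 and 0.545 CPM. Of the close relatives of the 8 genes, 2 of 101 tests were called with Rosi, both higher. These were the thioesterases Acot7 in eWAT preadipocyte-like cells (2.59, from 6.54 and 8.27 CPM to 25.3 and 55.7 CPM, where 13.2% of all genes were called) and Acot9 in iWAT PVMs (1.28, 9.21% called).

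The genes most like each of these in level, by Pearson correlation of log2(CPM + 1) over the sums of libraries and classes, 82 in eWAT and 67 in iWAT, are given as a description, since the sums of a library share its mouse and its depth. For Cyp4b1 they were Spaar (0.90), Hrct1 (0.89) and Epas1 (0.84) in eWAT, and Npr3, Ushbp1 and Sept4 (0.80 to 0.81) in iWAT. Angptl4 was most like Tmem140 (0.84), Rras (0.82) and Fez2 (0.80) in eWAT, and Ucp2 most like Tm6sf1 (0.86), Cyth4 and Tgfb1 (0.85). Likeness was lower for Pdk4, whose leading genes in eWAT were Cyr61 (0.69), Pkd2 (0.68) and Enpep (0.68), and which in iWAT had Fzd1 and Angptl4 (0.71) and Ghr (0.70).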

How the data were processed

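For each of the 12 libraries the authors deposited raw UMI counts per gene and cell barcode (10x Genomics 3-prime v3.1), per the labels and methods aligned to mm10 and counted with Cell Ranger 3.0.2. No correction for free RNA is stated, and iWAT counts had already been cut at about 22000 UMIs and 25% mitochondrial UMIs.

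Cells with 700 to 22000 UMIs, 200 to 6000 genes and under 25% mitochondrial UMIs were clustered per depot (scanpy 1.11.5, Leiden resolution 1) without the genes of fat metabolism. Clusters were named from markers, with details of naming adjusted after the clusters had been seen. Doublets were kept. Counts were summed per library and class with at least 20 cells and tested with edgeR 4.0.16 (TMM, filterByExpr, quasi-likelihood test, 3 groups together, no replicate block), after a test on simulated data. Labels call the 2 libraries of a group biological replicates, and an exact permutation test of 2 against 2 cannot go below p = 0.33. The 8 genes and all lists were chosen with earlier results of these data known. Named list genes were those called in the Rosi effect, at most 4 of largest change per class, with both ob/ob-Rosi libraries on 1 side of both ob/ob-Veh libraries, and for likeness the 3 genes of highest correlation with a mean of at least 20 CPM. Hspa1b was added after its values were seen. Alternatives were DESeq2 1.42.0, other scalings, no filter on low counts, doublets removed, cells thinned to 700 UMIs, Leiden resolution 2, a replicate block and each library left out.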

Additional observations from a re-analysis of the deposited data

Results flagged for a closer look

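The Rosi effect differed between cell classes of eWAT for 3 genes, by edgeR's quasi-likelihood test of the difference with the library as a block, between libraries labelled ob/ob-Rosi and ob/ob-Veh. For Cyp4b1 the log2 effect in ECs minus that in preadipocyte-like cells was -5.92 (adjusted p = 1.1e-06), and that in PVMs minus preadipocyte-like cells -5.15 (adjusted p = 0.00012). For Pdk4 these differences were -2.21 (adjusted p = 0.00096) and -2.73 (adjusted p = 0.00030). The Ucp2 effect in PVMs was below that in preadipocyte-like cells by a difference of -1.405 (adjusted p = 0.0166) and below that in ECs by one of -1.10 (adjusted p = 0.0222). Both ob/ob-Rosi libraries had more Cyp4b1 than both ob/ob-Veh libraries in preadipocyte-like cells, and both had less Pdk4 in ECs and PVMs, while their Ucp2 in PVMs, at 630 and 1541 CPM, lay on either side of the 1319 and 1293 CPM of the ob/ob-Veh libraries.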

How the results depend on the processing

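Of 356 repeats of the called changes under an alternative, 272 kept the call, 84 lost it in the same direction and 0 reversed. Both Cyp4b1 changes in eWAT preadipocyte-like cells kept it in all 16. Repeats without the 1.1-fold minimum are among these and could not lose a call. Repeats with the crossed iWAT block described below are counted as well. The number of calls depended on the processing. In the eWAT ob/ob effect the 8 calls became 13 with a replicate block, 13 with no filter on low counts, 5 without doublets and 4 in thinned cells, and 3 to 12 with 1 library left out. The 5 calls of the eWAT Rosi effect became 11 with the block, 11 with no filter, 2 thinned and 8 at Leiden resolution 2, and 1 to 12 with 1 library left out (1 without ob/ob-Rosi replicate 2). In ob/ob-Rosi against WT-Veh, the 1 eWAT call became 5 with the block, 4 by DESeq2, 2 with RLE scaling, 5 with no filter, 0 thinned, and 0 to 5 with 1 library left out. In iWAT, the 4 ob/ob calls became 10 with the block, 10 by DESeq2, 2 by library size alone, 14 with no filter, 2 thinned, 2 at resolution 2, and 0 to 19 with 1 library left out (0 without ob/ob-Veh replicate 1). The 4 Rosi calls became 9 with the block, 10 by DESeq2, 14 with no filter, and 0 to 16 with 1 library left out (0 without either ob/ob-Veh library). In ob/ob-Rosi against WT-Veh the 0 calls became 5 with the block, 6 by DESeq2, 9 with no filter, 1 without doublets, 1 at resolution 2, and 0 to 6 with 1 library left out. The share of all gene and class pairs called moved with these settings. In eWAT it went from 3.78% (ob/ob) and 3.82% (Rosi) to 9.23% and 8.96% with the block, 4.62% and 4.42% with no filter, 4.35% and 3.82% thinned, and 1.29% to 6.38% and 1.05% to 8.08% with 1 library left out. In iWAT it went from 2.92% and 5.49% to 7.21% and 12.8% with the block, 5.89% and 8.28% by DESeq2, 5.49% and 6.88% with no filter, and 0.147% to 12% and 0% to 13.9% with 1 library left out. In ob/ob-Rosi against WT-Veh it went from 0.0307% and 0.024% to 0.34% and 0.548% with the block. Where no share is given for a setting, its count of calls stands without a background. Between depots, 3 differences of the ob/ob and 1 of the Rosi effect were called with the block and 0 without, while the share of all genes called rose from 0.477% to 1.19% and from 0.149% to 0.949%. The causes were not tested. The labels do not tie replicate numbers across groups. Deviations of same-numbered libraries correlated by 0.17 to 0.33 in eWAT, but for -0.05 in NPVMs of the libraries labelled ob/ob-Veh and ob/ob-Rosi, a hint of pairing from the data alone. In iWAT they correlated by 0.31 to 0.59 between WT-Veh and ob/ob-Rosi libraries. Pairs with an iWAT ob/ob-Veh library had -0.12 to 0.13. Crossing the numbers of the iWAT ob/ob-Veh libraries in the block, chosen after seeing the data, gave 9, 11 and 4 iWAT calls. Scaling to library size in place of TMM moved the median of all genes by up to 0.53 (iWAT T cells), in iWAT NPVMs by 0.38 in the ob/ob and -0.45 in the Rosi effect. In simulated eWAT data, 2-fold changes were called in 14%, 8% and 24% of cases in preadipocyte-like cells, ECs and PVMs. Of 4-fold changes, 86%, 80% and 86% were called. With 2 mice a group, changes of 2-fold or less were thus mostly not detected in these simulations. Fewer genes were changed there than were called in the Rosi effect of the same classes, and the adjusted p depends on how many genes change. Other classes, iWAT and the ob/ob effect were not simulated. Levels of a few CPM rest on few UMIs.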
